A study of Rattus norvegicus with 3 samples.

Results

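Mettl21c and Ky, a pair of genes expressed mainly in striated muscle and linked to its upkeep, were followed in rat soleus without load. They are 2 of 14217 genes that have a probe set of their own on the array, and every probe set annotated to either symbol alone was used: 1 for Mettl21c (1380519_at) and 2 for Ky, a brighter (1389694_at) and a dimmer one (1375445_at). All 3 probe sets exceeded the floor set for low signals, 6.01 on the log2 scale, on all arrays. The genes were chosen by their log2 signals in control, 7-day and 14-day muscle of these same arrays, so the values below describe these pools and were not tested.

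The soleus, a calf muscle made largely of slow fibres that bears weight in standing, was taken from white Sprague-Dawley rats, 8 weeks of age. All were fed normally. The first group is labelled as a control of 7 days, and the others were suspended by the taped tail at about 30 degrees for 7 or 14 days, which takes the load off the hind limbs. There were 3 groups, each a mixture of RNA from 4 rats measured on 1 Affymetrix array. The spread between rats is therefore not known, and no p-value is given. The same 7-day control serves both comparisons. By its labels the 14-day pool differs from that control in time as well as in suspension, and these cannot be told apart. One label of the 14-day sample reads 7 days; its title and time entry read 14 days.

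Mettl21c is a lysine methyltransferase of the METTL21 family, a group of enzymes of the seven-beta-strand fold that add methyl groups to lysines of chaperones, elongation factors and other non-histone proteins. It is made mainly in skeletal muscle, has been tied to slow, Myh7-expressing fibres, and is reported to methylate alanyl-tRNA synthetase. Ky encodes the kyphoscoliosis peptidase, a protein of the Z-disc with a transglutaminase-like domain that binds filamin C. Mice without it develop a myopathy with a curved spine, and their soleus does not enlarge normally under load.

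A stretch of the rat Ky promoter is shown because the promoter reference used here held an entry for Ky but none for Mettl21c. It covers the 250 bases before the RefSeq transcription start, chr8:111965612-111965861 on the plus strand of GRCr8, and capitals mark the matches to the motifs searched. The Mettl21c promoter is not shown.
Ky: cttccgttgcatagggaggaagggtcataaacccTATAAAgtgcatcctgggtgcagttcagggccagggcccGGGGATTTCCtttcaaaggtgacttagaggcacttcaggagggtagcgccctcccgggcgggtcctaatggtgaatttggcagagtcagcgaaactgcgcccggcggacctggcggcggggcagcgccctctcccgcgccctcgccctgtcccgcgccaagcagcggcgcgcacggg

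The window was 65.2% G or C, against a median of 51.2% over 33469 rat promoters of the same length. Both strands were searched. The TATA box letters TATAAA occurred 1 time, 216 to 211 bases before the start, and were present in 12.9% of all promoters. A kappaB site occurred 1 time, 177 to 168 bases before the start, and was present in 3.54% of promoters. The NFAT core GGAAA matched 1 time on the minus strand inside that kappaB match, and was present in 56.9% of promoters. The window held no E-box (CANNTG, in 65.5% of promoters), MCAT element (CATTCC, 12.1%), MEF3 site (TCAGGTT, 3.30%), MEF2 site (2.96%), CArG box (1.497%), FOXO element (0.947%) or ERR element (0.388%). These are matches of letters in 1 short window.

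Mettl21c was among the brighter probe sets of the loaded muscle and lost most of its signal. Its log2 signal was 11.87 in control, 9.65 after a week and 8.42 after 14 days of suspension, or 3746, 801 and 343 on the unlogged scale. The 7-day pool lay below control, and the 14-day pool lay below both. The signal was 4.68-fold lower at 7 days and 10.9-fold lower at 14 days than in control, log2 differences of -2.23 and -3.45, so that 9.14% of the control signal was left. Between the suspended pools it was 2.34-fold lower at 14 days. On the log2 scale, 64.5% of the 14-day difference was already present at 7 days.

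Ky moved the opposite way, and more of its difference came in the second week. The brighter probe set had a log2 signal of 9.997 in control, 11.28 at 7 days and 13.01 at 14 days, or 1022, 2485 and 8245 unlogged. The dimmer one had 8.68, 9.06 and 11.30, or 410, 532 and 2529 unlogged. Both were lowest in control and highest at 14 days.

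**Figure D1:**
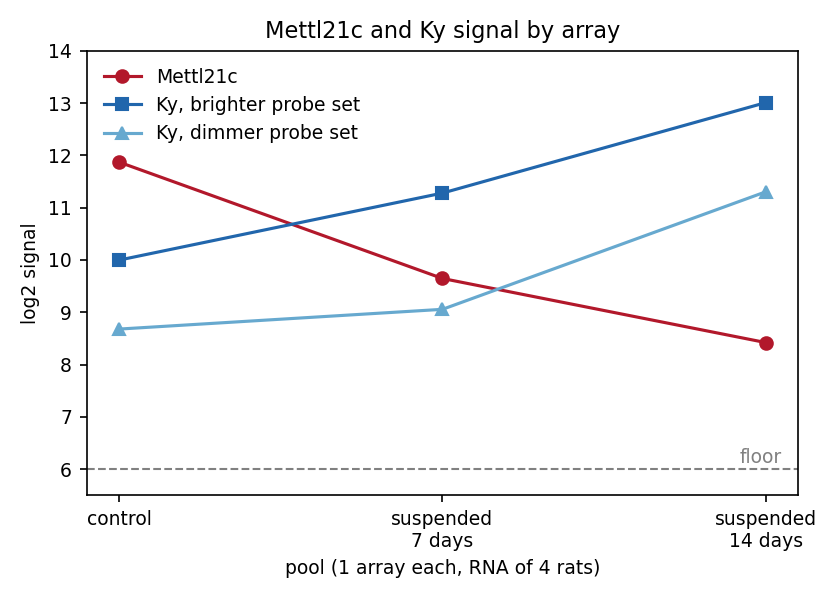
Log2 signal (vertical axis) of the 3 probe sets in the pools of control, 7-day and 14-day suspension (horizontal axis), each point 1 pool of 4 rats; the dashed line is the floor of 6.01. Mettl21c runs down from 11.87 to 8.42, while the Ky probe sets end at 13.01 and 11.30.

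At 14 days the Ky probe sets stood 8.07-fold and 6.17-fold above control, log2 differences of 3.01 and 2.63. At 7 days they gave different answers: 2.43-fold (log2 1.28) for the brighter but 1.30-fold (log2 0.38) for the dimmer probe set. For the second week the folds were 3.32 and 4.75. The share of the 14-day log2 difference reached at 7 days was accordingly 42.6% and 14.4%.

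The only error measure these arrays allow is technical, from the disagreement between probe sets of 1 gene. Over 2293 such pairs the SD of a single probe set's log2 difference was 0.36 for either suspended pool against control. At signals like that of Mettl21c, over 1174 of the pairs, it was 0.34 for both and 0.28 between the suspended pools. The Mettl21c differences were 6.56, 10.1 and 4.36 such SDs for 7 days, 14 days and the second week. For the brighter Ky probe set, whose brighter signals gave SDs of 0.26, 0.28 and 0.20, they were 4.84, 10.8 and 8.66. For the dimmer one the 7-day difference was 1.11 SDs, about the size of the noise, while those of 14 days and the second week were 7.65 and 8.00. The Ky probe sets differed from each other by 0.90 at 7 days, and 8.42% of the pairs were at least as far apart. At 14 days they differed by 0.39, and 39.0% of the pairs were at least as far apart. The genes were chosen by these same differences, so large multiples of the SD follow from the choice and are not a test. This error leaves out the spread between rats. Both probe sets of a pair were read on the same arrays, so it also leaves out any array error that they share.

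The background was taken over the 11233 genes that reached the floor in 1 pool or more. The share of genes that were 2-fold or more below control was 2.39% at 7 days and 2.43% at 14 days, and the share as far above it was 2.21% and 3.47%. Between the suspended pools the shares were 0.81% below and 1.42% above. With each array centred on its median, the counts above and below moved from 248 and 268 to 320 and 218 at 7 days, and from 160 and 91 to 129 and 116 between the suspended pools. Mettl21c and the brighter Ky probe set lie past 2-fold in all 3 comparisons, the measure by which the genes were chosen, so nothing is read from that. Of all measured genes, 49.0% lay below control by any amount at 7 days and 47.3% at 14 days. These shares and those at 2-fold are the background of the list counts below.

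Mettl21c ranked 8th from the bottom at 7 days, with Ankrd1, Hbegf, Bdh1, Doc2g, Igdcc3 and Bcl11a among those below it. At 14 days no measured gene lay lower. Of 20899 probe sets, 1 did, 1377721_at, which the annotation gives no single gene and with log2 signals of 11.11, 6.80 and 5.75 in the 3 pools. In the second week Mettl21c ranked 32nd from the bottom. With neither floor nor filter on low values, 184 of 14217 genes lay below Mettl21c at 14 days.

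By its brighter probe set Ky ranked 109th from the top at 7 days, 9th at 14 days and 21st in the second week. With the mean of its probe sets it ranked 485th at 7 days. Above it at 14 days were 4 genes of fast fibres, the myosin heavy chain Myh4, the actinin Actn3, the calcium buffer Pvalb and the myosin-binding protein Mybpc2, together with Gpt2, Cd24, C8h3orf18 and the water channel Aqp4. With neither floor nor filter, 142 genes lay above it.

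**Figure D2:**
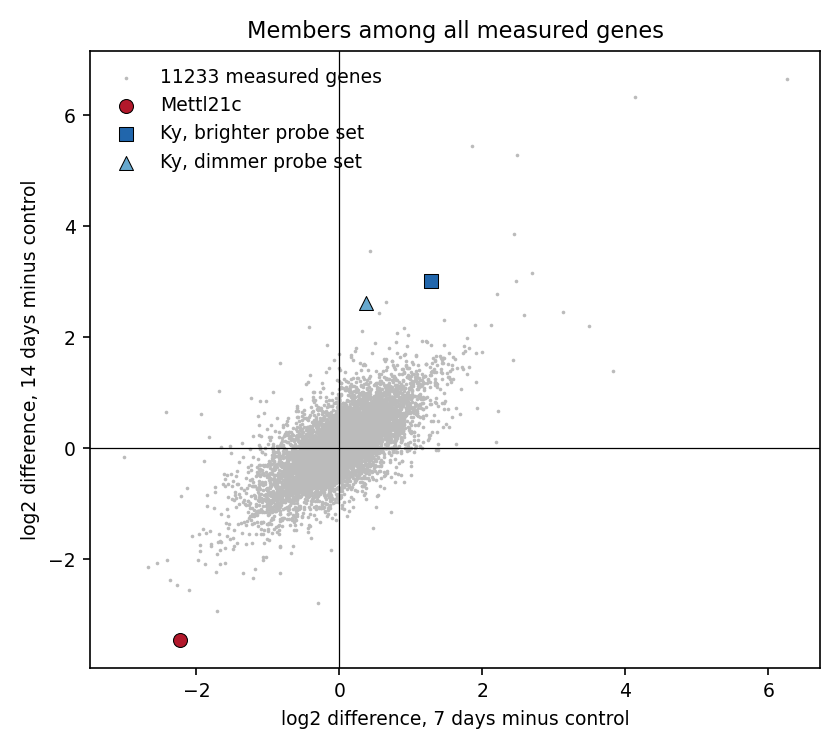
Log2 difference from control at 7 days (horizontal axis) and 14 days (vertical axis) for 11233 measured genes (grey) and the 3 probe sets of Mettl21c and Ky. Both axes use the same control array. Mettl21c lies lowest on the 14-day axis at -3.45, and the Ky probe sets share heights near 3.01 and 2.63 but lie apart along the 7-day axis, at 1.28 and 0.38.

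Of 11 other measured methyltransferases of the fold, 0 reached 2-fold from control at either time, close to what the shares over all genes would give. Their medians were 0.02 at 7 days and 0.09 at 14 days, where the medians over all measured genes were 0.00 and 0.01. Vcpkmt, the METTL21-family enzyme that methylates the ATPase VCP, had log2 signals of 9.41, 9.51 and 9.58 in control, 7 days and 14 days. Mettl18, a histidine methyltransferase of a ribosomal protein, had 7.62, 8.32 and 8.41. A dimmer probe set of Etfbkmt, the methyltransferase of an electron transfer flavoprotein subunit, had 6.78, 7.82 and 7.25, a 7-day difference of 1.04, where the brighter one gave -0.12. Mettl21a and Mettl21e were not measured by a probe set of their own.

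Among 9 SET-domain methyltransferases, the other large class of protein methyltransferases, 1 was at least 2-fold lower at 14 days and none was 2-fold higher. That gene was Smyd1, a muscle enzyme needed for myosin assembly, with log2 signals of 11.25, 10.31 and 9.998 in the 3 pools, or 2.38-fold lower at 14 days. Setd3, the actin histidine methyltransferase, had 11.09, 11.14 and 11.12. The list medians were -0.11 and 0.13. A count of 1 among 9 is too small to set apart from the 2.43% of all measured genes that were 2-fold lower at 14 days.

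Proteins reported as substrates or partners of such enzymes had medians of -0.28 at 7 days and -0.23 at 14 days over 11 measured genes. At 14 days 10 of the 11 lay below control, against 47.3% of all measured genes. Aars1, the alanyl-tRNA synthetase, had log2 signals of 11.65, 11.37 and 11.50, and Vcp had 12.74, 12.69 and 12.67, both nearly level beside Mettl21c. Eef1a2, the elongation factor of adult muscle, had 11.32, 11.20 and 11.30. At least 2-fold lower at 14 days were 2 chaperones, Hspa1a (3.29-fold) and the endoplasmic reticulum chaperone Hspa5 (2.07-fold).

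Most genes around Ky lay on the opposite side from it, but so did other muscle genes. Of 14 measured KY partners and filamin C maintenance genes, 13 lay below control at 14 days, where 47.3% of all measured genes did. At 14 days 11 of 12 myofibre markers, 16 of 17 slow fibre genes and 18 of 24 Z-disc genes also lay below it. Of 17 fast fibre genes 2 did. The direction is thus not particular to the genes around Ky. Some genes are in more than 1 of these lists. The median of the KY list was -0.57 at 14 days, against -0.22 at 7 days. At 14 days 6 of the 14 were at least 1.5-fold lower and 0 as much higher, where 9.25% and 11.7% of all measured genes were; 1 was 2-fold lower. Flnc, the filamin C that Ky binds, had log2 signals of 14.32, 14.21 and 13.58, and a dimmer Flnc probe set had 9.67, 8.54 and 7.78, a 14-day difference of -1.89. Bag3, the co-chaperone that clears damaged filamin, had 12.67, 11.91 and 11.70. Xirp1, an actin-binding protein that gathers at strained sarcomeres with filamin C, was 3.56-fold lower at 14 days. Mybpc1, another reported Ky partner, was close to the top of the scale on every array, at 15.23, 15.17 and 15.13. Whether differences are compressed at such signals was not tested. Igfn1 was not measured by a probe set of its own.

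Z-disc genes as a whole went both ways. Of 24 measured, 2 stood at least 2-fold above control at 14 days, Actn3 and Myoz1, and 2 as far below it, Fhl2 and the stretch-responsive Ankrd2, with a median of -0.18. Fhl2, a LIM protein of the sarcomere, had 13.16, 11.45 and 10.23 in control, 7 days and 14 days. The transglutaminase list, whose fold KY resembles, had 5 measured genes: Tgm2, Tgm3, Tgm4, F13a1 and Ngly1. Ngly1 is a peptide N-glycanase of that fold and not a transglutaminase. Of the 5, 0 reached 2-fold from control at either time, a count too small to set apart from the share over all genes. Tgm2 had 11.24, 10.82 and 10.85. F13a1, the factor XIII subunit, had 8.53, 9.01 and 9.37, while a dimmer F13a1 probe set had 5.40 in control, under the floor, and 7.42 and 7.81 after suspension.

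**Figure D3:**
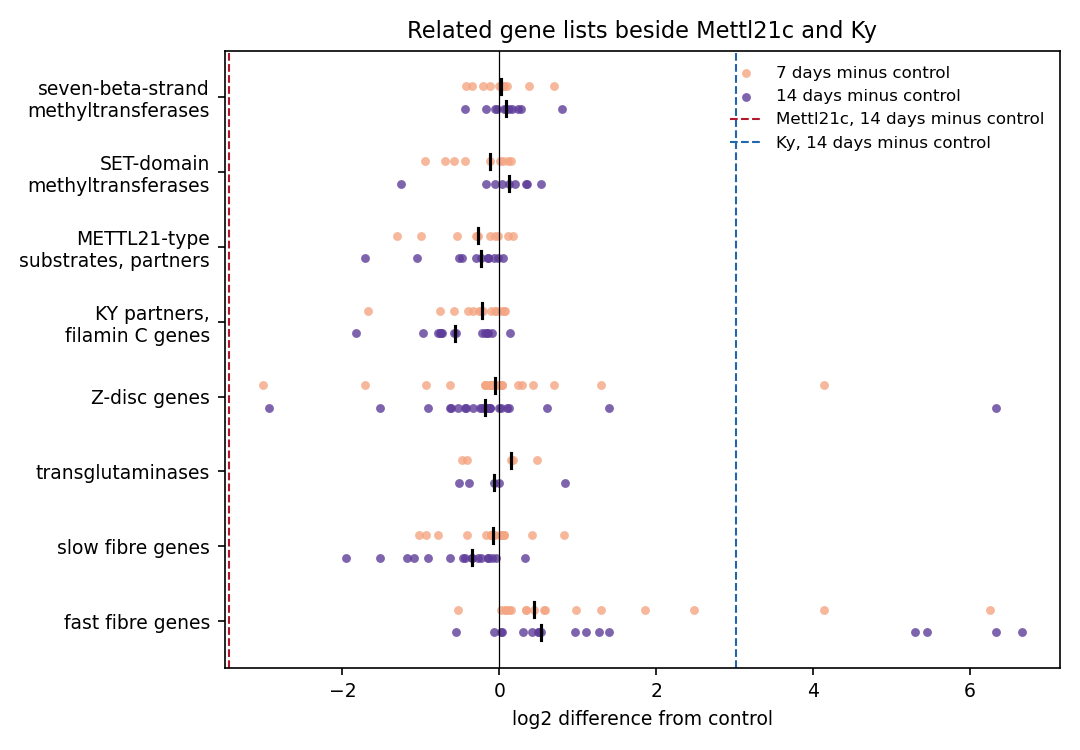
Log2 difference from control (horizontal axis) for the measured genes of 8 related lists, at 7 days (orange) and 14 days (purple), each point 1 gene and each short bar a list median; dashed lines mark Mettl21c (-3.45) and Ky (3.01) at 14 days. No gene of the lists lies as low as Mettl21c at 14 days, and 4 fast fibre genes, Actn3 also being in the Z-disc list, lie higher than Ky.

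Fibre type genes give the setting of both members. Of 17 measured slow fibre genes, 4 were at least 2-fold lower at 14 days and none 2-fold higher. Over all measured genes these shares were 2.43% and 3.47%. Of the 17, with a median of -0.35, 16 lay below control, against 47.3% of all measured genes. The calsequestrin Casq2, with log2 signals of 13.66, 12.64 and 11.71, came nearest to Mettl21c among the slow fibre genes. Myh7, the slow myosin heavy chain, was at 15.81, 15.84 and 15.67, near the top of the scale, and a dimmer Myh7 probe set had 11.77, 11.26 and 10.53. Of 17 fast fibre genes, 7 were at least 2-fold higher at 14 days and none 2-fold lower, with a median of 0.53. Below control at 14 days were 2 of them, the myosin heavy chains Myh1, with 14.49, 13.97 and 13.94, and Myh2, at -0.07.

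Regulators of muscle genes were mixed, with 2 of 21 at least 2-fold above control and 4 as far below it at 14 days. Over all measured genes these shares were 3.47% and 2.43%. Myod1, the myogenic factor linked to fast fibres, had 8.14, 9.09 and 9.99, upward in each pool as Ky was. Prox1 and Esrrg, both linked to slow or oxidative fibres, had 10.61, 9.33 and 9.46, and 12.42, 11.86 and 11.34. Of all measured genes 49.0% lay below control at 7 days and 47.3% at 14 days. In the NF-kappaB pathway 11 of 12 genes did so at 7 days and 10 at 14 days, with medians of -0.38 and -0.32. The 1 that was 2-fold higher at 7 days was the inhibitor Nfkbia, with 10.04, 11.36 and 10.64, and 0 were 2-fold lower. At 14 days 1 was at least 2-fold lower, the kinase Map3k14. Genes of muscle wasting took another course over time than Ky or Mettl21c. Their median was 0.35 at 7 days but -0.25 at 14 days over 23 genes, with the ubiquitin ligase Trim63 at 12.81, 13.71 and 12.20. Not all wasting genes were back at or below control. At 14 days 2 stood at least 2-fold above it, Cebpd (3.02-fold) and Ddit4 (2.29-fold), and 1 as far below it, Mt2A (3.56-fold). Of 27 measured genes of hereditary muscle disease, among them Capn3 and Fhl1 of the lists above, 0 reached 2-fold from control at either time with signals under the floor set to it. For Dmd, the dystrophin gene, control lay under the floor, so its 14-day fold of at least 1.72 is a lower limit.

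The 12 myofibre markers summed to an unlogged 513789 in control, 102% of that at 7 days and 88.6% at 14 days, with none at 0. Macrophage markers, 10 of 10 measured, summed to 131% and 133% of control, and all 10 lay above control at both times. Fibroblast markers, 8 of 8 measured, summed to 117% and 147%, and those of nerve and Schwann cells, 4 measured, to 134% and 191%. Endothelial markers (7 measured) gave 95.01% and 110%, and red blood cell markers (3 measured) 119% and 88.2%. The red blood cell sum was mostly Hbb, at -0.13 at 14 days, where Alas2 was at -0.28 and Hba-a3 at -2.80. Adipocyte markers (5 measured) gave 94.9% and 70.1%, but were split at 14 days, with Lpl at -0.79 and Fabp4 at -0.28 and with Adipoq at 0.61 and Plin1 at 0.93. Satellite cell markers (3 measured) gave 86.6% and 51.3%, where Sdc4 was at -1.16, Vcam1 at -0.27 and Cdh15 at 0.06 at 14 days; Pax7 and Myf5 had no probe set of their own. The markers Lep, Mag and Sox10 were under the floor in all pools, and no marker was at 0. Their part in the Mettl21c and Ky differences was not tested, and in RNA of whole muscle a smaller share of fibres and less RNA per fibre cannot be told apart.

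The genes whose course was most like each member were found by the distance between their pairs of log2 differences from control, over 3 arrays and 9785 other genes that exceeded the floor in all pools. Predicted loci, with symbols of LOC or RGD and a number, were passed over in naming the nearest genes. They were kept in the counts by distance. All pairs share the control array, so likeness is in part shared noise. Nearest to Mettl21c was Fhl2, at a distance of 0.73, and a further Fhl2 probe set had differences of -1.63 and -2.83. Among those after it were the nuclear exportin Xpo4 (0.91), the glycerol channel Aqp7 (1.32), the growth factor Hbegf (1.38) and the surface protein Igdcc3 (1.45). The Xpo4 probe set used had differences of -2.10 and -2.55. Further, dimmer Xpo4 probe sets had smaller ones, -1.57 and -1.67, and -1.17 and -1.74. Only Fhl2 among the 6 nearest was 2-fold lower again in the second week, with a log2 difference of -1.22 beside -1.23 for Mettl21c. Hbegf and Igdcc3 were higher at 14 than at 7 days, by 0.53 and 0.39, although a further Igdcc3 probe set gave -0.12.

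Nearest to the brighter Ky probe set were the sodium pump subunit Atp1b2 (0.73), the sialidase Neu2 (0.93), the muscle fructose bisphosphatase Fbp2 (0.95), the cytokine signalling suppressor Cish (0.97), the surface glycoprotein Cd24 (1.01) and the glycerol-3-phosphate dehydrogenase Gpd1 (1.02). Fbp2 had most of its difference by 7 days, log2 2.21 of 2.79, and Cd24 had little, 0.43 of 3.55. For the dimmer Ky probe set, Cish came first, at a distance of 0.10, although a further Cish probe set had 5.03, 5.69 and 6.44, under the floor but for 14 days. Then came Atp1b2 (0.28), the calcium-binding Cib2 (0.52), Neu2 (0.70), Gpd1 (0.82) and the nicotinamide riboside kinase Nmrk2 (0.83). Thus 4 genes, Atp1b2, Neu2, Cish and Gpd1, were among the nearest 6 of both. A distance of at most 1 was met by 3 genes for Mettl21c and by 4 and 17 for the Ky probe sets.

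**Figure D4:**
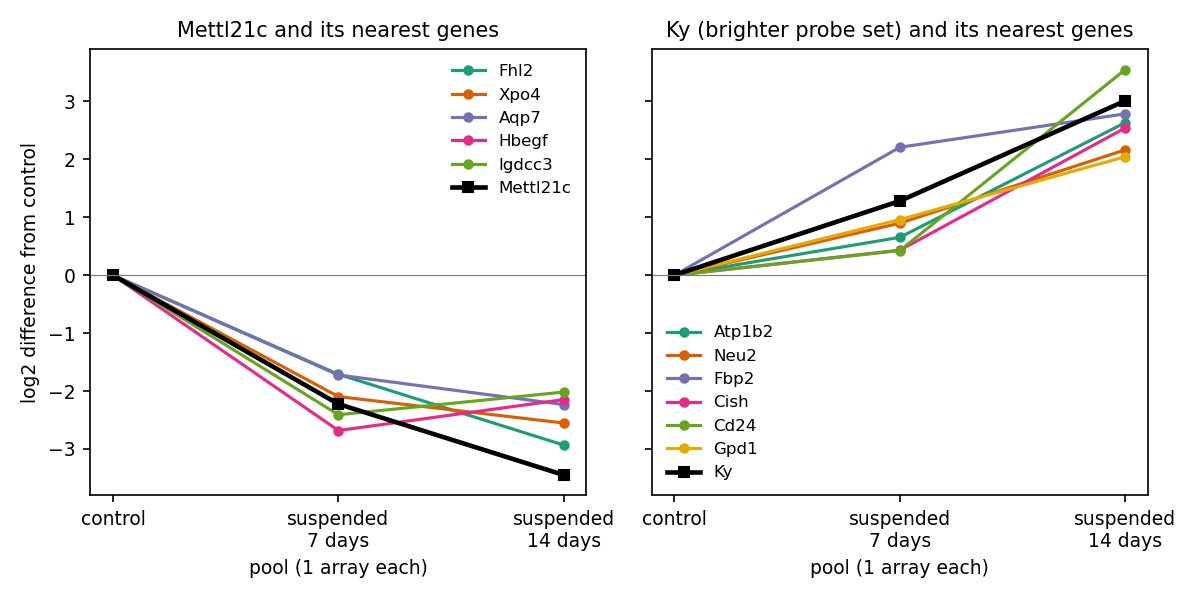
Log2 difference from control (vertical axis) in the 3 pools (horizontal axis) for Mettl21c (left) and the brighter Ky probe set (right), in black, with genes from the 6 nearest to each in colour; every line starts at 0 in control. Mettl21c and Fhl2 go on downward between 7 and 14 days, to -3.45 and -2.93, while Hbegf and Igdcc3 turn up.

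Genes beside the members on the chromosome, by RefSeq order in GRCr8, had smaller differences. Of the 3 protein-coding genes on each side of Mettl21c, 5 were measured. Tpp2, next to it, had log2 signals of 10.24, 10.35 and 10.23 in control, 7 days and 14 days, and the lowest 14-day difference of the 5 was -0.41, for Tex30. Ecrg4 was 1.27 higher than control at 14 days, in the direction opposite to Mettl21c. Of the 6 genes around Ky, 4 were measured, with 14-day differences from -0.25 for Ppp2r3a to 0.43 for Amotl2, and Cep63, next to Ky, had 8.40, 8.56 and 8.61. Ephb1, on its other side, was under the floor on every array.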

How the data were processed

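The deposited table holds log2 signals of 31099 probe sets, which the authors scaled so that the mean unlogged signal, trimmed by 2% at each end, was 500.2 on every array, as read from the values. Neither program nor settings are given in the sources used here. Total RNA was pooled, labelled with biotin and hybridised per the labels' protocols.

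Values were used as deposited. Without the 57 control probe sets, 20826 had 1 gene in the annotation, 436 several and 9780 none. Each gene was read from the probe set with the highest mean over the arrays. Signals under the floor, the 40th percentile of all values, were set to it, and a gene reaching it on at least 1 array counted as measured. The arrays were alike: 59.1% to 61.6% of probe sets reached the floor and array medians lay from 6.70 to 6.77. Lists were described by counts and medians. Named genes were the members, the 6 nearest in pattern, a set of family and fibre type genes, and up to 4 genes per list. Those 4 had the largest differences among list genes at least 2-fold different from control, and not all are named. The rest were named with their values known, among them Bag3, Mettl18, Etfbkmt, Tgm2, F13a1, Aars1, Trim63, Dmd, Myh1, Myh2, Mybpc1, Myoz1 and Esrrg. So were genes ranked beyond the members and chromosome neighbours. The members and lists were chosen with earlier results of these data known. The steps were tested on simulated data. Python 3.11.15, pandas 2.3.3 and NumPy 2.4.6 were used. Alternatives covered scaling, pseudocount, probe set choice and floor. Sequences are from RefSeq, GRCr8, and the promoter set used here held Ky but had no entry for Mettl21c. One gene that the pattern rule selects is not reported here.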

Additional observations from a re-analysis of the deposited data

How the results depend on the processing

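No paired analysis was possible because each group is 1 pool of RNA on 1 array. Under 5 other treatments of the data (each array centred on its median, quantile normalization, log2 of signal plus 32, averaging a gene's probe sets, and no floor or filter) the Mettl21c difference stayed between -2.23 and -2.15 at 7 days, -3.49 and -3.33 at 14 days, and -1.28 and -1.15 in the second week. Averaging probe sets and leaving out floor and filter could not move Mettl21c, which has 1 probe set, above the floor on all arrays. With the mean of its probe sets Ky was 0.83 above control at 7 days, less than 2-fold, and 1.99 higher in the second week. With the dimmer Ky probe set alone, an alternative chosen after seeing the data, the Ky values were 0.38 at 7 days, 2.63 at 14 days and 2.25 in the second week. No member difference changed sign. Of 180 list medians under these treatments, marker lists left out, 17 moved by more than 0.1 and 4 changed sign. When probe sets were averaged per gene, the median of the transglutaminase list, Ngly1 included, went from 0.14 to -0.17 at 7 days. In the second week it went from -0.04 to 0.15, and that of wasting genes from -0.70 to -0.49. With arrays centred, the Z-disc median at 7 days went from -0.06 to 0.01. That of NF-kappaB genes in the second week went from 0.04 to -0.02.

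Counts over all genes depended on how low signals were treated. With log2 of signal plus 32, 164 genes were at least 2-fold lower at 7 days and 176 at 14 days, and 93 were 2-fold higher and 43 lower in the second week. With the mean of probe sets, 139 were 2-fold lower in the second week. With neither floor nor filter, 1047 were 2-fold higher and 1505 lower at 7 days, 1237 and 1587 at 14 days, and 1179 and 1077 in the second week; at 1.5-fold the 14-day counts were 2378 and 2698. With 1 array a group, precision is limited throughout.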
